A study of Homo sapiens with 2 samples.

Results

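The genes described are those of the constitutive proteasome, the protein complex that degrades ubiquitin-tagged proteins. They were taken by name, as every gene whose symbol is PSMA, PSMB, PSMC or PSMD followed by a number to its end, without the immunoproteasome genes PSMB8, PSMB9 and PSMB10. The rule found 38 of the 32738 gene entries, which carry 36 symbols, since PSMA1 and PSMA2 each have a second identifier. By role these are 18 entries of the core particle (PSMA and PSMB), 17 of the regulatory particle (PSMC and PSMD) and 3 chaperones of regulatory particle assembly (PSMD5, PSMD9 and PSMD10).

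The cells of interest were Nalm-6, an established human line of acute lymphoblastic leukemia of B-cell precursors, carrying a Tet-On inducible construct of the fusion ETV6-RUNX1, also written TEL-AML1. The control cells were Nalm-6 with the same kind of construct carrying luciferase (LUC control). Both were given doxycycline at 500 ng/ml for 24 h, so both the drug and an induced transgene are shared by the groups. Each construct was measured in 1 droplet-based single-cell library, in which a barcode names the cell of each captured poly-A transcript and a molecular identifier (UMI) marks the single molecule. With 1 library per construct and 1 cell line, a difference between the libraries has no replicate check, and no test was made. Intervals given in parentheses are exact 95% counting intervals unless said otherwise, and they cover counting error only.

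The proteasome is built from a barrel-shaped core particle and a regulatory particle that caps it. Rings of alpha subunits (PSMA) gate the barrel, and rings of beta subunits (PSMB) hold the proteolytic sites inside it. In the regulatory particle, a base with a ring of ATPases (PSMC) unfolds the substrate, and a lid (most PSMD genes) holds the subunit that removes its ubiquitin. The subunits are needed in fixed proportion in the finished complex, and in mammalian cells their genes are known to be transcribed together by NRF1 (NFE2L1) when the proteasome is inhibited. B-lineage and plasma cell cancers are treated with inhibitors of its beta subunits.

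Cells were kept if they had 1000 genes or more and no more than 10% mitochondrial UMIs. The ETV6-RUNX1 library held 2267 cells with 43941536 UMIs and the LUC control library 1870 cells with 42762188 UMIs. The median cell had 19219 UMIs in the ETV6-RUNX1 library and 22535.5 in the LUC control. The libraries share 7 barcodes among kept cells. Of 9 matched markers of B-cell precursors, all 9 reached the floor for a measured gene, set at 10 CPM (UMIs scaled to a library total of 1000000) in either library. The markers of erythroid cells and megakaryocytes were all at 0, none of T and NK cells or of epithelial cells and fibroblasts reached 10 CPM, and CD3D, CD3E, EPCAM and DCN were at 0. Of 6 myeloid markers 1 reached the floor, CST3, and the 6 summed to 13.2 CPM in the ETV6-RUNX1 library and 12.1 CPM in the LUC control. ETV6 itself was at 10.1 CPM in the ETV6-RUNX1 library and 6.95 CPM in the LUC control, and RUNX1 was at 33.8 CPM in the ETV6-RUNX1 library and 34.0 CPM in the LUC control. Neither the fusion nor luciferase was read as an entry of its own here.

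Proteasome transcripts were abundant in both libraries, with core particle subunits at higher levels than regulatory particle subunits. Together the genes took 0.506% of all UMIs with ETV6-RUNX1 (222211 UMIs) and 0.540% in the LUC control (230831 UMIs). The median kept cell held 88 proteasome UMIs with ETV6-RUNX1 and 115 in the LUC control. The summed core particle was at 3393 CPM with ETV6-RUNX1 and 3638 CPM in the LUC control. The summed regulatory particle was at 1605 CPM with ETV6-RUNX1 and 1696 CPM in the LUC control. This gave a core-to-regulatory ratio of 2.11 with ETV6-RUNX1 and 2.15 in the LUC control. A UMI counts a captured transcript, so these levels were not divided by gene length, and differences in capture between genes remain in them.

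Of the 38 entries, 33 reached that floor, 14 of the core particle, all 17 of the regulatory particle and 2 of the chaperones. The second identifiers of PSMA1 (ENSG00000256206) and PSMA2 (ENSG00000256646) and PSMB11, the thymus-restricted beta subunit, had 0 UMIs in either library, which allows up to 0.0683 CPM with ETV6-RUNX1 and 0.0702 CPM in the LUC control. PSMA8, the testis-restricted alpha subunit, had 1 UMI with ETV6-RUNX1 and 2 in the LUC control. With PSMA8 and PSMB11 at or near 0, the members held 1 measured gene for each of the 7 alpha and 7 beta positions. The immunoproteasome genes PSMB8, PSMB9 and PSMB10, which the rule left out, were measured as well and are given further on. PSMD5, a chaperone of base assembly, was detected below the floor, at 4.87 CPM with ETV6-RUNX1 and 4.77 CPM in the LUC control.

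In the alpha ring, PSMA7 had the highest level of all members, 714 CPM (706 to 722) with ETV6-RUNX1 and 734 CPM (726 to 742) in LUC control cells. PSMA6 had the lowest level of the ring, 31.3 CPM (29.7 to 33.0) with ETV6-RUNX1 and 36.8 CPM (35.0 to 38.6) in LUC control cells, although both occupy 1 position per ring. The alpha ring thus spanned 22.8-fold with ETV6-RUNX1 and 20.0-fold in the LUC control. That width rests on PSMA6, whose level is uncertain for a reason given below. The next lowest alpha subunit was PSMA5, at 158 CPM with ETV6-RUNX1 and 176 CPM in the LUC control. The beta ring spanned 3.16-fold with ETV6-RUNX1 and 3.52-fold in the LUC control. PSMB1, a structural beta subunit without a proteolytic site, had its highest level, 368 CPM with ETV6-RUNX1 and 406 CPM in the LUC control. PSMB4, another structural subunit, had its lowest, 116 CPM with ETV6-RUNX1 and 115 CPM in the LUC control. Among the subunits with proteolytic sites, PSMB7 (trypsin-like) was at 279.8 CPM with ETV6-RUNX1 and 289.8 CPM in the LUC control. PSMB6 (caspase-like) was close to it, at 248 CPM with ETV6-RUNX1 and 262 CPM in the LUC control. PSMB5 (chymotrypsin-like, the main site of inhibitor binding) was lower, at 125 CPM with ETV6-RUNX1 and 138 CPM in the LUC control.

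In the base of the regulatory particle, the ATPases spanned 2.88-fold with ETV6-RUNX1 and 2.75-fold in the LUC control. PSMC5 was the highest, 151 CPM with ETV6-RUNX1 and 156 CPM in the LUC control, and PSMC2 the lowest, 52.5 CPM with ETV6-RUNX1 and 56.5 CPM in the LUC control. PSMD4, a ubiquitin receptor, led the other base subunits at 111 CPM with ETV6-RUNX1 and 115 CPM in the LUC control. PSMD2, a scaffold that binds ubiquitin-like domains of shuttle proteins, was the lowest of them at 63.8 CPM with ETV6-RUNX1 and 69.3 CPM in the LUC control. In the lid, PSMD8 stood above the rest at 267 CPM with ETV6-RUNX1 and 279 CPM in the LUC control. PSMD12, a scaffold subunit of the lid, was the lowest at 38.1 CPM with ETV6-RUNX1 and 42.5 CPM in the LUC control. PSMD14, the deubiquitinase of the lid, lay between them at 87.3 CPM with ETV6-RUNX1 and 91.2 CPM in the LUC control. The assembly chaperones were low, with PSMD9 at 33.7 CPM with ETV6-RUNX1 and 38.2 CPM in the LUC control and PSMD10 (gankyrin) at 20.2 CPM with ETV6-RUNX1 and 21.8 CPM in the LUC control.

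The median measured core member was at 213 CPM with ETV6-RUNX1 and 234 CPM in the LUC control. The median regulatory member was at 70.6 CPM with ETV6-RUNX1 and 75.3 CPM in the LUC control. The gap between these medians was 3.02-fold with ETV6-RUNX1 and 3.10-fold in the LUC control. In each library 1 regulatory member lay above the core median, which was PSMD8, and 1 core member lay below the regulatory median, which was PSMA6. Reads of genes with near-identical processed copies can be lost or split in counting, and GENCODE release 29 names 30 pseudogenes after 11 of the 36 symbols, with 13 for PSMC1, 4 for PSMA6 and 3 each for PSMA2 and PSMD10. None of these copies has an entry of its own in the matrices, so the levels of those genes are uncertain.

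**Figure D1:**
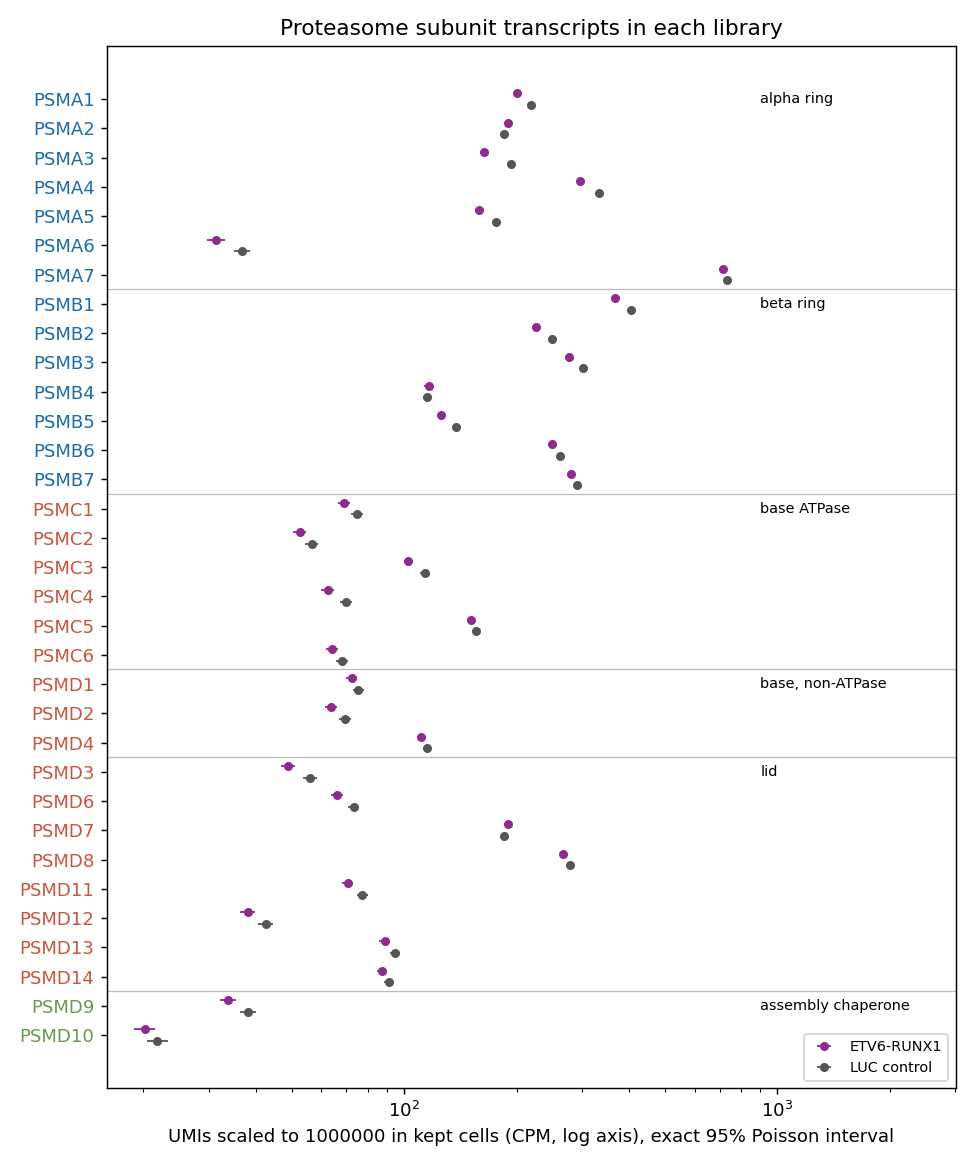
Level of each of the 33 measured members in the ETV6-RUNX1 library (purple) and the LUC control library (grey), as CPM on a log axis, with exact 95% Poisson intervals; gene names are coloured by particle and grouped by role. Core members lie mostly above 100 CPM and regulatory members mostly below, with PSMA7 highest (714 CPM with ETV6-RUNX1, 734 CPM in the LUC control) and PSMD10 lowest (20.2 CPM with ETV6-RUNX1, 21.8 CPM in the LUC control).

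Promoters of the members were examined for letters of motifs known from proteasome gene regulation and of the RUNX motif, which relates to the fusion. This was done because the genes are co-regulated in other settings and because PSMC3 and PSMD7 were the members past 1.2-fold between G2/M and G1. PSMA5 was the lowest in that ratio, as given further on. RefSeq windows from 250 bases before to 50 bases after the annotated start (build GRCh38.p14) were at hand for 31 of the 36 symbols, 28 of them measured. A gene with several annotated starts has several windows, and it was counted once for a motif if any of them held it. The windows of PSMC3, PSMD7 and PSMA5 are shown with that of PSMA4, a core gene with an antioxidant response element match in the shown 1 of its 3 windows and no match of any motif searched in the others. Each is written 5′ to 3′ on the gene's own strand, and capitals mark the matches to the NRF1-type antioxidant response element (TGACNNNGC), the ETS motif (CCGGAAG) and the NFY box (CCAAT) on either strand.
PSMC3, GRCh38.p14 chr11:47426390-47426689, minus strand: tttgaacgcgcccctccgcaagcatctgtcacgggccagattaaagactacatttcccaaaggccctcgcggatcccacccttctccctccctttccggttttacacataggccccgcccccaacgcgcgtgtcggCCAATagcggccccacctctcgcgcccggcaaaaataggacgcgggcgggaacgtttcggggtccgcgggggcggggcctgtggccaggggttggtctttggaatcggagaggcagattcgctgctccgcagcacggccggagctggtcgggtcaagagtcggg
PSMD7, GRCh38.p14 chr16:74296564-74296863, plus strand: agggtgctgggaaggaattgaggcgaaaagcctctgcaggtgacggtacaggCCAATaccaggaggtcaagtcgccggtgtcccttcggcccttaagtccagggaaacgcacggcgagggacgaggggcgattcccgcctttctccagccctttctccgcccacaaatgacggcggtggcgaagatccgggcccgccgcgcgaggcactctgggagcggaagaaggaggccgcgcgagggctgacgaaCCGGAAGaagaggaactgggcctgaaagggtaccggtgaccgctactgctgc
PSMA5, GRCh38.p14 chr1:109426399-109426698, minus strand: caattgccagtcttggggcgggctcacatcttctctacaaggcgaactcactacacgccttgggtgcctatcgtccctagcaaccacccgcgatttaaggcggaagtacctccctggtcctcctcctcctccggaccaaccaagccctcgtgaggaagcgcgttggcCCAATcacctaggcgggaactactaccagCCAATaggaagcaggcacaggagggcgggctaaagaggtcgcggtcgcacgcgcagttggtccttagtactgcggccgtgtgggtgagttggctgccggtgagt
PSMA4, GRCh38.p14 chr15:78540536-78540835, plus strand: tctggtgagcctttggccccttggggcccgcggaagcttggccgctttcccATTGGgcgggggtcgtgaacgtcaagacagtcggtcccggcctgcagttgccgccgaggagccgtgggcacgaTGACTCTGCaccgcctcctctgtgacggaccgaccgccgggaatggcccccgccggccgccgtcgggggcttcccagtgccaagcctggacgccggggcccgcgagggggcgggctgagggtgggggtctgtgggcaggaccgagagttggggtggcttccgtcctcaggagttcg

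Positions give the first base of a match relative to the annotated start, with bases before it negative. PSMC3 held 1 CCAAT box, at -114. PSMD7 held a CCAAT box at -198 and an ETS match at -2. PSMA5 held 2 CCAAT boxes, at -83 and -54, and none of the other motifs. In PSMA4 the antioxidant response element match read TGACTCTGC, at -126, with an inverted CCAAT box at -199.

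Over the measured genes with a window, the ETS motif was in 11 of 28, or 39.3%, against 12.2% of all genes in the RefSeq table. That reference also holds genes not measured here, and the share among measured genes alone was not computed for any motif. Whether a higher share is particular to proteasome genes was thus not tested. The ETS matches lay in 9 of 16 regulatory particle genes and in 1 of 10 core particle genes, PSMA6. No window was at hand for the measured core genes PSMA7, PSMB1, PSMB6 and PSMB7 or for the regulatory gene PSMD4. The antioxidant response element was in 8 of 28 against 16.1% of all genes, and those 8 were PSMA4, PSMB3, PSMC4, PSMC5, PSMD1, PSMD3, PSMD9 and PSMD12. The CCAAT box was in 16 of 28 against 39.7%. The YY1 motif (AAGATGGCG) was in 3 of 28, PSMA2, PSMC5 and PSMD11, against 2.13%. The RUNX motif (TGTGGT), whose factor family includes the DNA-binding part of the fusion, was in 6 of 28 against 15.6%, and those were PSMA3, PSMB5, PSMC5, PSMD6, PSMD9 and PSMD13. All motifs were searched on both strands, overlapping matches between motifs were allowed, and a match is a description of letters, not of binding.

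With ETV6-RUNX1, most members were slightly lower than in the LUC control, and none differed by much. No measured member reached a 1.5-fold difference, as 0 of 33 were higher by that size (0.185% of all 5954 measured genes were) and 0 of 33 were lower (0.655% of all genes). At 1.2-fold, too, 0 of 33 were past the size in either direction, beside 2.5% of all genes higher and 5.73% lower. The log2 ratio was below 0 for 30 of 33 members, against 63.8% of all genes. Its counting interval lay wholly below 0 for 25 of 33 (31.9% of all genes) and wholly above 0 for 0 of 33 (13% of all genes). Abundant genes have narrow intervals, so counts of intervals depend on level, and 33 of 33 members lay between the 5th and 95th percentiles of all measured genes (-0.27 to 0.19). The lowering was not particular to the members, as 8 of 8 genes of the CCT chaperonin were below 0, with a summed log2 ratio of -0.15. Nuclear genes of oxidative phosphorylation were below 0 in 54 of 77 and cytosolic ribosomal protein genes in 22 of 84.

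The median log2 ratio was -0.12 over the members and -0.04 over all measured genes. With a stricter cell filter (2000 genes, 5% mitochondrial UMIs) these medians were -0.07 and -0.04. The summed core particle had a log2 ratio of -0.10 (-0.11 to -0.09) and the summed regulatory particle one of -0.08 (-0.09 to -0.06). By role the sums were at -0.10 for the alpha ring, -0.10 for the beta ring, -0.10 for the ATPases, -0.07 for the other base subunits, -0.07 for the lid and -0.14 for the chaperones. The core-to-regulatory ratio therefore differed little between the libraries. Scaling by TMM, by median of ratios or to totals without ribosomal protein and mitochondrial genes moved every ratio up by 0.04, 0.04 and 0.05, which left both sums below 0.

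PSMA3, an alpha ring subunit, had the lowest ratio. It was at 164 CPM (159.8 to 167) with ETV6-RUNX1 and 193 CPM (189 to 197) in LUC control cells, a log2 ratio of -0.24 (-0.28 to -0.19). PSMA6 followed with a log2 ratio of -0.23 (-0.34 to -0.13) at its low level given above. PSMD3, a lid scaffold subunit, was at 48.8 CPM (46.8 to 50.9) with ETV6-RUNX1 and 55.9 CPM (53.7 to 58.2) in LUC control cells, a log2 ratio of -0.20 (-0.28 to -0.11). Each of these differences was smaller than 1.2-fold, and the 3 genes were picked for having the lowest ratios of the members.

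At the other end, PSMD7, the lid partner of the deubiquitinase PSMD14, was at 189.5 CPM (185 to 194) with ETV6-RUNX1 and 185 CPM (181 to 189) in LUC control cells. Its log2 ratio was 0.04 (-0.01 to 0.08). PSMA2 (ENSG00000106588), an alpha ring subunit, was at 189.9 CPM (186 to 194) with ETV6-RUNX1 and 185 CPM (181 to 189.6) in LUC control cells, a log2 ratio of 0.03 (-0.01 to 0.08). PSMB4 had a log2 ratio of 0.01 (-0.04 to 0.07). These were the 3 members above 0, and each interval held 0.

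The libraries differed in their mix of cell-cycle phases, and the members' summed ratio was below 0 within each. In cells called G1 the sum over all members had a log2 ratio of -0.08 (-0.10 to -0.05), in S -0.10 (-0.12 to -0.09) and in G2/M -0.08 (-0.09 to -0.07). The core particle was at -0.09, -0.10 and -0.09 in these phases, and the regulatory particle at -0.03, -0.11 and -0.06. The core value was thus similar in the phases, while the regulatory value was nearest 0 in G1, where its interval held 0 (-0.08 to 0.01), and furthest from it in S (-0.14 to -0.08). The number of members below 0 was 27 of 33 in G1, 30 in S and 31 in G2/M, beside 56.6%, 60.1% and 65.1% of all genes.

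The share of UMIs from the members also moved with the depth of a cell, which differed between the libraries. When each library's cells were split into 4 groups of equal size by their UMIs, the members' level was higher in each deeper group, at 4341, 4660, 5070 and 5493 CPM with ETV6-RUNX1 and 4962, 5250, 5397 and 5647 CPM in the LUC control. Each group of the ETV6-RUNX1 library lay below the LUC control group of the same rank, but these groups do not match in depth, with medians between 9693 and 28132 UMIs with ETV6-RUNX1 and between 13788 and 31900 UMIs in the LUC control. The part of depth in the library ratio was not tested by matching cells on it.

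The immunoproteasome genes, left out by the rule, encode the beta subunits that replace PSMB5, PSMB6 and PSMB7 in interferon-treated and lymphoid cells. PSMB8 was at 124 CPM with ETV6-RUNX1 and 169 CPM in the LUC control, and PSMB10 was at 19.4 CPM with ETV6-RUNX1 and 30.5 CPM in the LUC control. Their log2 ratios were -0.45 (-0.50 to -0.40) for PSMB8 and -0.65 (-0.78 to -0.53) for PSMB10, while PSMB9 was at -0.10 (-0.16 to -0.04). The constitutive counterparts lay nearer 0, at -0.14 (-0.19 to -0.08) for PSMB5, -0.08 (-0.12 to -0.04) for PSMB6 and -0.05 (-0.09 to -0.01) for PSMB7.

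Genes that work with the proteasome showed small ratios as well. Of a list of 44 genes of activators, other regulatory particle subunits, assembly, the NRF1 route, ubiquitin and substrate delivery, 40 were measured and 0 passed 1.5-fold in either direction (0.185% of all genes were higher and 0.655% lower by that size), with 28 below 0 (63.8% of all genes). These counts are near those of all genes. The furthest from 0 was NFE2L2, a transcription factor of the oxidative stress response related to NRF1, at 20.7 CPM with ETV6-RUNX1 and 26.3 CPM in the LUC control, a log2 ratio of -0.35 (-0.47 to -0.22). The proteasome-bound deubiquitinases UCHL5 and USP14 followed at -0.25 (-0.36 to -0.14) and -0.21 (-0.30 to -0.12). NFE2L1, which encodes NRF1, was at 16.0 CPM with ETV6-RUNX1 and 14.8 CPM in the LUC control, a log2 ratio of 0.11 (-0.05 to 0.27). Its interval held 0.

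Across the cell cycle, the core particle had a nearly constant share of all UMIs, a result that rests on the choice of totals given below. The regulatory particle took a larger share of proteasome transcripts in G2/M than in G1. Cells were thinned to 8700 UMIs each, which left out 224 cells with ETV6-RUNX1 and 84 in the LUC control, and were called by scores of S and G2/M gene lists that hold 0 of the members. Of 2043 cells with ETV6-RUNX1, 352 were called G1, 567 S and 1124 G2/M, and of 1786 LUC control cells 246, 702 and 838. These calls group cells by score and are no count of cycling cells. In 43.7% of cells with ETV6-RUNX1 and 48.7% in the LUC control, the S or G2/M score lay within 0.05 of its threshold. That share leaves out cells with near-equal S and G2/M scores, so it does not measure how many calls are uncertain.

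In the ETV6-RUNX1 library the core particle was at 3390, 3451 and 3411 CPM from G1 through S to G2/M, and the regulatory particle at 1533, 1600 and 1643 CPM. In the LUC control library the core particle was at 3615, 3690 and 3624 CPM over the same phases, and the regulatory particle at 1569, 1728 and 1708 CPM. Core levels stayed within a narrow range in both libraries, and regulatory levels were lowest in G1 in both. Cells called G2/M held more transcripts in all, so that the number of member UMIs per cell was 85.7, 97.9 and 116 from G1 through S to G2/M with ETV6-RUNX1 and 102, 120 and 143 in the LUC control. The mean UMIs per cell over all genes were 17225, 19192 and 22702 with ETV6-RUNX1 and 19402, 21811 and 26465 in the LUC control. In the earlier split by UMIs, the core particle rose from 2891 CPM in the shallowest group to 3678 CPM in the deepest with ETV6-RUNX1. In the LUC control it rose from 3343 to 3796 CPM, and the regulatory particle was also higher in the deepest group of each library. The part of depth in the phase comparison was not tested.

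The ratio of regulatory to core UMIs does not depend on how totals are set, and all its intervals in this paragraph are normal approximations. It was 0.482 in G2/M and 0.452 in G1 with ETV6-RUNX1, a log2 difference of 0.09 (0.05 to 0.13). In the LUC control it was 0.471 in G2/M and 0.434 in G1, a log2 difference of 0.12 (0.08 to 0.16). Between S and G1 the log2 difference was 0.04 (-0.01 to 0.08) with ETV6-RUNX1 and 0.11 (0.07 to 0.15) in LUC control cells. Without PSMC3 and PSMD7, the log2 difference between G2/M and G1 was 0.05 (0.01 to 0.09) with ETV6-RUNX1 and 0.07 (0.02 to 0.11) in LUC control cells. These genes were picked for being higher in G2/M than in G1 in the same cells, so a smaller difference without them follows from the choice. The ratio of regulatory to core UMIs was formed after the phase sums had been seen.

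As shares of all UMIs, the G2/M over G1 log2 ratio of the core particle was 0.01 (-0.01 to 0.03) with ETV6-RUNX1 and 0.00 (-0.02 to 0.03) in LUC control cells. That of the regulatory particle was 0.10 (0.07 to 0.13) with ETV6-RUNX1 and 0.12 (0.09 to 0.16) in LUC control cells. These are ratios of sums. The median over regulatory members was 0.07 with ETV6-RUNX1 and 0.09 in the LUC control. Medians over all genes were 0.09 with ETV6-RUNX1 and 0.12 in the LUC control. When genes of ribosomal proteins and mitochondria were left out of the totals, the regulatory particle was at -0.01 with ETV6-RUNX1 and 0.01 in the LUC control and the core particle at -0.10 with ETV6-RUNX1 and -0.11 in the LUC control, so directions on this scale rest on the choice of totals. Within the regulatory particle the ATPases were at 0.12 with ETV6-RUNX1 and 0.22 in the LUC control. The lid was at 0.10 in each library, and the other base subunits were at 0.05 with ETV6-RUNX1 and 0.01 in the LUC control.

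By gene, 2 of 33 members were at least 1.2-fold higher in G2/M than in G1 in both libraries, against 16.4% of all genes, and 0 of 33 were lower, against 2.62%. The higher members, PSMC3 and PSMD7, make a count that rests on the setting: it was 1 with cells near a threshold left out, 1 with levels from thinned counts and 0 when genes of ribosomal proteins and mitochondria were left out of the totals. PSMC3, an ATPase of the base, was at 85.6 CPM in G1, 102 CPM in S and 108 CPM in G2/M with ETV6-RUNX1. In the LUC control PSMC3 was at 85.7 CPM in G1, 113 CPM in S and 119 CPM in G2/M. Its G2/M over G1 log2 ratio was 0.33 (0.20 to 0.47) with ETV6-RUNX1 and 0.48 (0.33 to 0.63) in LUC control cells, and in both libraries the S level lay nearer G2/M than G1.

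PSMD7 was at 162 CPM in G1, 189 CPM in S and 198 CPM in G2/M with ETV6-RUNX1, and at 155 CPM in G1, 186 CPM in S and 191 CPM in G2/M in the LUC control. Its log2 ratios were 0.28 (0.19 to 0.38) with ETV6-RUNX1 and 0.30 (0.19 to 0.42) in LUC control cells, and in both libraries most of the difference lay between G1 and S. PSMD10, a chaperone of base assembly that also binds cell-cycle regulators, was at 17.0 CPM in G1, 17.6 CPM in S and 22.2 CPM in G2/M with ETV6-RUNX1 and at 20.5 CPM in G1, 19.4 CPM in S and 23.9 CPM in G2/M in the LUC control. Its G1 and S levels were similar, and its G2/M over G1 log2 ratios were 0.39 (0.08 to 0.70) with ETV6-RUNX1 and 0.22 (-0.09 to 0.54) in LUC control cells, where the interval held 0. PSMD10 was the 1 of 33 members at least 1.2-fold higher in G2/M than in S in both libraries (4.59% of all genes were), and 0 of 33 were lower (2.99%). That count was 0 with phase calls on unthinned cells, with cells near a threshold left out, with levels from thinned counts and with a floor of 50 CPM.

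The lowest member was PSMA5, an alpha ring subunit, at 169 CPM in G1, 166 CPM in S and 155 CPM in G2/M with ETV6-RUNX1. In the LUC control PSMA5 was at 182 CPM in G1, 188 CPM in S and 167 CPM in G2/M. Its G2/M over G1 log2 ratios were -0.13 (-0.23 to -0.03) with ETV6-RUNX1 and -0.13 (-0.23 to -0.02) in LUC control cells, both below 0. PSMA2 had log2 ratios of -0.03 (-0.12 to 0.07) with ETV6-RUNX1 and -0.12 (-0.22 to -0.02) in LUC control cells. PSMD6, a lid subunit, had log2 ratios of -0.04 (-0.20 to 0.12) with ETV6-RUNX1 and -0.11 (-0.27 to 0.07) in LUC control cells, and both intervals held 0. Between S and G1, 17 of 33 members were above 0 in both libraries (48.5% of all genes) and 2 below (22.9%), and between G2/M and S 14 were above (41.8%) and 12 below (31%). Between S and G1, 0 of 33 members were past 1.2-fold higher in both libraries (14.5% of all genes) and 0 lower (2.49%). In both libraries 18 of 33 members were above 0 in G2/M over G1 and 9 below, beside 55% and 20.5% of all genes, and of the core members these were 4 and 5 of 14, of the regulatory members 12 and 4 of 17.

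Across single cells, core and regulatory transcripts varied together. In cells thinned to 8700 UMIs, so that all share 1 depth, the mean cell held 29.0 core and 13.7 regulatory UMIs with ETV6-RUNX1 (2043 cells) and 31.0 core and 14.5 regulatory UMIs in the LUC control (1786 cells). When cells were ordered by core UMIs and split into 4 groups of equal size, the mean core UMIs of the groups were 17.7, 25.2, 31.3 and 41.6 with ETV6-RUNX1. The regulatory UMIs of the same cells were 9.95, 12.5, 14.6 and 17.8. In the LUC control the mean core UMIs were 20.7, 27.8, 33.3 and 42.4, and the regulatory UMIs of the same cells were 11.2, 13.8, 15.0 and 18.0. The regulatory mean thus was 1.79-fold higher in the top than in the bottom group with ETV6-RUNX1 and 1.60-fold in the LUC control, although no regulatory gene was used to order the cells.

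Pearson's r between the core and regulatory sums was 0.57 with ETV6-RUNX1 and 0.48 in the LUC control. Counting noise made up 32.1% and 47.3% of the variance of the core and regulatory sums with ETV6-RUNX1 and 42.2% and 52.1% in the LUC control. With that noise taken out of the variances, the correlation was 0.95 with ETV6-RUNX1 and 0.92 in the LUC control. The remaining coefficient of variation between cells was 27.0% for the core and 28.5% for the regulatory particle with ETV6-RUNX1 and 21.0% and 25.2% in the LUC control. Within the particles, the noise-corrected correlation was 0.91 with ETV6-RUNX1 and 0.82 in the LUC control for the alpha with the beta ring, and 0.94 with ETV6-RUNX1 and 0.76 in the LUC control for the base with the lid. Within single phases the core-regulatory value was 0.90, 0.98 and 0.96 for G1, S and G2/M with ETV6-RUNX1 and 0.89, 0.98 and 0.90 in the LUC control. These are descriptions across cells of 1 library each, which share culture, library and thinning.

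The members varied together with genes of another multi-subunit machine, and opposite to those of the ribosome. The summed members had a noise-corrected correlation of 0.85 with ETV6-RUNX1 and 0.82 in the LUC control with the CCT chaperonin genes, which fold actin and tubulin, and of 0.74 with ETV6-RUNX1 and 0.71 in the LUC control with nuclear genes of oxidative phosphorylation. With the cytosolic ribosomal protein genes it was -0.68 with ETV6-RUNX1 and -0.61 in the LUC control. Ribosomal protein genes took 435758 CPM with ETV6-RUNX1 and 420375 CPM in the LUC control, and the part of this large share in the negative correlation at a fixed number of UMIs per cell was not tested. The members' thinned sum was also related to the cell's own depth, at an r with log2 UMIs of 0.27 with ETV6-RUNX1 and 0.18 in the LUC control. Its r with the mitochondrial share was -0.20 with ETV6-RUNX1 and -0.18 in the LUC control. Its r with the S score was 0.07 with ETV6-RUNX1 and 0.12 in the LUC control, and that with the G2/M score 0.05 in each library.

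Pairs of single genes showed the covariation weakly, since a member holds few UMIs per cell, and the median r over 528 member pairs was 0.07 with ETV6-RUNX1 and 0.05 in the LUC control. Covariance divided by the product of means does not depend on level in this way. Its median was 0.062 with ETV6-RUNX1 and 0.041 in the LUC control for 91 pairs within the core. For 136 pairs within the regulatory particle it was 0.085 with ETV6-RUNX1 and 0.068 in the LUC control, and for 238 pairs between the particles 0.076 with ETV6-RUNX1 and 0.049 in the LUC control. The medians over all 17722081 pairs of measured genes were 0.0051 with ETV6-RUNX1 and 0.0036 in the LUC control. Member pairs thus stood above the common level in both libraries, and pairs within the regulatory particle above pairs within the core. Of the member pairs, 94.1% with ETV6-RUNX1 and 90.0% in the LUC control were above 0, beside 53.1% of all pairs with ETV6-RUNX1 and 52.3% in the LUC control. In both libraries at once 456 of 528 were above 0, and the pair values of the libraries had r of 0.48 with each other. Pairs within the CCT genes had higher medians, 0.112 with ETV6-RUNX1 and 0.077 in the LUC control, and pairs of oxidative phosphorylation genes lower ones, 0.016 with ETV6-RUNX1 and 0.0087 in the LUC control.

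**Figure D2:**
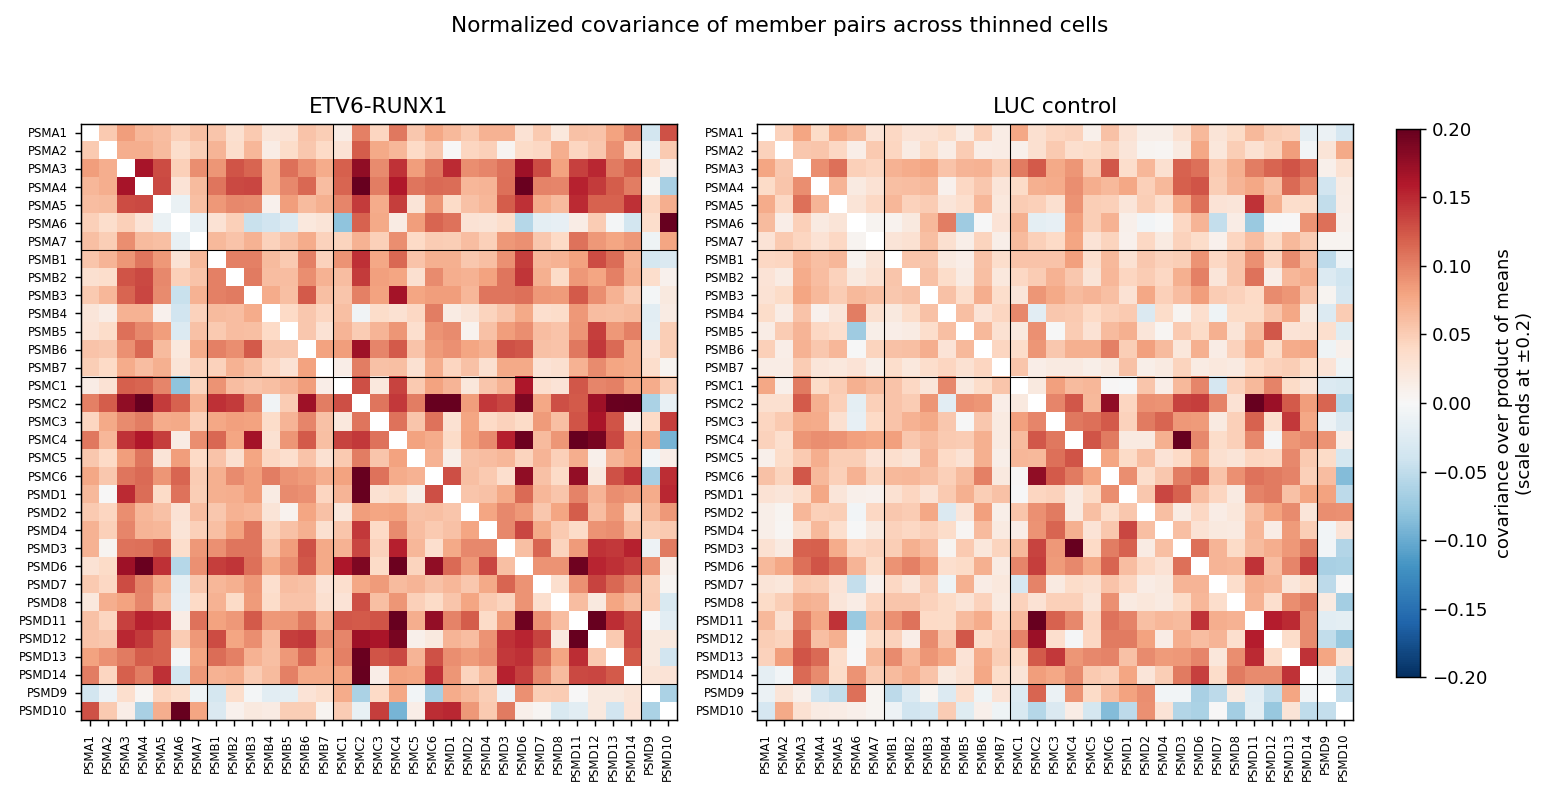
Covariance over the product of means for each pair of measured members across thinned cells, in the ETV6-RUNX1 library (left) and the LUC control library (right), with red above 0 and blue below; lines separate alpha ring, beta ring, regulatory particle and chaperones. Most pairs are red in both libraries (456 of 528), and most of the pairs below 0 lie in the rows of PSMA6, PSMD9 and PSMD10 (30 of 31 with ETV6-RUNX1, 44 of 53 in the LUC control), where values above 0 occur too.

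Each member was then set against the sum of the other members. PSMC2, an ATPase, had the highest normalized covariance with ETV6-RUNX1, 0.123, and 0.066 in the LUC control. The lid subunit PSMD13 was at 0.095 with ETV6-RUNX1 and had the highest value in the LUC control, 0.078. The lid subunits PSMD6 and PSMD11, the ATPase PSMC4 and the alpha subunit PSMA3 were in the top 5 of both libraries. Their values lay between 0.102 and 0.110 with ETV6-RUNX1 and between 0.070 and 0.075 in the LUC control. The lowest values were those of the 3 members with the fewest UMIs. The chaperone PSMD9 was at 0.012 with ETV6-RUNX1 and -0.00063 in the LUC control, the chaperone PSMD10 at 0.031 with ETV6-RUNX1 and -0.0082 in the LUC control, and PSMA6 at 0.014 with ETV6-RUNX1 and 0.020 in the LUC control. PSMD12, next in UMIs, was not low, at 0.099 with ETV6-RUNX1 and 0.056 in the LUC control. The medians over members were 0.071 with ETV6-RUNX1 and 0.047 in the LUC control, and those over the 5921 other measured genes 0.010 with ETV6-RUNX1 and 0.0051 in the LUC control. Of the 33 members, 18 with ETV6-RUNX1 and 21 in the LUC control lay above the 95th percentile of those other genes.

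Among genes that are no members, the highest r with the summed members in both libraries was that of HSP90AA1, the inducible cytosolic HSP90 chaperone, 0.62 with ETV6-RUNX1 and 0.58 in the LUC control. The glycolytic enzyme ENO1 came next, 0.51 with ETV6-RUNX1 and 0.43 in the LUC control. The lactate dehydrogenase subunits LDHA and LDHB, the nucleolar protein NPM1, ACTB, the chaperones HSP90AB1 and HSPD1, the helicase EIF4A1 and the peroxiredoxin PRDX1 completed the first 10, with r between 0.41 and 0.47 with ETV6-RUNX1 and between 0.33 and 0.41 in the LUC control. The lowest r were those of the ribosomal protein genes RPS12, with -0.49 with ETV6-RUNX1 and -0.40 in the LUC control, RPS19, RPS27, RPLP1 and RPL13A. A plain r favours abundant genes, and all of these were abundant, with 4.66 to 145 UMIs per thinned cell with ETV6-RUNX1.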

How the data were processed

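Poly-A RNA of single cells was counted in 2 libraries, 1 per construct. The authors deposited matrices of raw UMI counts that were not normalized, and per the submitters' processing notes these were made with Cell Ranger 3.0.2 on hg19. How reads of overlapping or near-identical genes were counted was not stated in the sources. The identifiers and symbols came from the deposited gene lists, which are the same in both libraries, and 0 further columns of per-sample values were left aside.

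Cells with at least 1000 genes and at most 10% mitochondrial UMIs were kept. Doublets were left in and no caller was run, since doublets of 1 cell line are hard to call; as an alternative the 5% of cells with the most UMIs were left out. UMIs were summed over kept cells and scaled to CPM. Ratios have exact 95% intervals from Poisson counts, except that regulatory-to-core differences between phases have normal approximations. Upper limits at a count of 0 are those of 3 UMIs. UMIs were taken as independent, so intervals leave out the spread between cells, cultures and library preparations. Genes that reached 10 CPM in either library counted as measured (5954 genes). Without replicates no test was made, and genes were counted by size, at 1.5-fold between libraries and 1.2-fold between phases in both libraries. Cells were thinned without replacement to 8700 UMIs for covariation and for phase calls. Phases were scored in scanpy 1.11.5 with 40 of 43 listed S genes and 54 of 54 G2/M genes. A cell with both scores below 0 was called G1, and any other cell took the phase of its higher score. Levels by phase used unthinned counts. The noise-corrected correlation is the covariance over the geometric mean of the variances less their Poisson part. It was checked on simulated cells of known correlation, only at the means of the core and regulatory sums and whole-library cell numbers. Those known correlations lay below the core-regulatory values reported for the whole libraries. The values for rings, for base with lid, within phases and with other gene groups were not simulated, and no noise-corrected correlation has an interval. The ratio and its interval were checked on simulated independent Poisson counts. As the interval assumes such counts, that check does not cover the spread between cells or libraries. TMM (edgeR 4.0.16) and median-of-ratios (DESeq2 1.42.0) factors were alternatives only.

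Named in full were the 3 members at each end of the library ratio and of the G2/M over G1 ratio and the highest and lowest level by role; among other genes, the 10 with the highest and 5 with the lowest correlation with the members, and in the pathway list the 3 furthest from 0 and NFE2L1. The members and lists were chosen with earlier results of these data known. Promoter windows are from RefSeq on GRCh38.p14 and were matched by symbol; no hg19 coordinate was used.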

Additional observations from a re-analysis of the deposited data

How the results depend on the processing

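Of 195 alternative values, 161 were labelled the same as the reported one. For summed ratios this meant inside its counting interval, and for the members' median inside the typical half-width of a member's interval. For covariation it meant within the gap between the libraries, and for counts of members an equal count or one within 1.5-fold. Many of those counts were 0 under every setting, and reduced totals cannot change the regulatory-to-core difference, so the number 161 overstates stability. No alternative placed a member past 1.5-fold between the libraries, and the median log2 ratio of the members spanned -0.15 to -0.07, with the value nearest 0, -0.0657, under the stricter cell filter.

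For the ETV6-RUNX1 over LUC control log2 ratio of the core and the regulatory particle, TMM gave -0.0608 (core) and -0.0400 (regulatory), median of ratios -0.0610 and -0.0402, reduced totals (no ribosomal protein or mitochondrial genes) -0.0546 and -0.0338, equal weights of cells -0.127 and -0.105, and a filter at 2000 genes and 5% mitochondrial UMIs -0.0747 and -0.0550. In G1 cells alone the regulatory value was -0.0337.

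For G2/M over G1, the core particle was at 0.0422 with phase calls on unthinned cells (ETV6-RUNX1), at -0.0230 with the stricter filter (LUC control), at -0.101 (ETV6-RUNX1) and -0.110 (LUC control) with the reduced totals, and at -0.0271 (ETV6-RUNX1) and -0.0305 (LUC control) without the 5% of cells with the most UMIs, an alternative chosen after seeing the data. Its reported intervals hold 0, and its sign changed in 2 of 7 alternatives with ETV6-RUNX1 and 5 of 7 in the LUC control. The regulatory particle was at 0.0785 with phase calls on unthinned cells (LUC control) and, with the reduced totals, at -0.00971 (ETV6-RUNX1, below 0 where the reported interval was above it) and 0.00883 (LUC control). The regulatory-to-core log2 difference lay between 0.07 and 0.10 with ETV6-RUNX1 and between 0.09 and 0.13 in the LUC control.

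Members past 1.2-fold in both libraries were few under each setting. G2/M over G1 had 1 with cells near a threshold left out, 1 with thinned levels, 0 with the reduced totals and 0 at 1.5-fold. S over G1 had 2 with cells near a threshold left out and 1 each with thinned levels, equal weights of cells and without the cells with the most UMIs. G2/M over S had 0 with calls on unthinned cells, cells near a threshold left out, thinned levels, 1.5-fold or a floor of 50 CPM. Without thinning, the median covariance of regulatory pairs with ETV6-RUNX1 was 0.101. For totals, sizes and floors the change follows from the setting itself; for the others the cause was not tested.

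No paired analysis was possible because there was 1 library per construct. The summed particles have narrow counting intervals, which leave out that the members' level moved with cell depth and that depth differed between the libraries. Depth limits PSMD10, PSMA6 and other members under 50 CPM within phases, and it leaves single pairs of genes too sparse to read 1 by 1. What 1 library per construct cannot give is the spread between cultures, so differences of this size between the libraries have no replicate check.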
